A study of Mus musculus with 2 samples.

Results

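The 10 genes described here encode members of activator protein 1 (AP-1) and the related factors ATF3, BATF and MAFF in mouse bone marrow-derived macrophages (BMDMs) after 6 h of LPS. They were found by their symbols, *Fos*, *Fosb*, *Fosl1*, *Fosl2*, *Jun*, *Junb*, *Jund*, *Atf3*, *Batf* and *Maff*, each of which stood in 1 of the 37451 rows of the deposited table. RNA-Seq was performed on 1 library of WT cells (C57BL/6) and 1 library of ΔM cells (C57BL/6 TTP fl/fl LysMCre), as the control for a map of binding sites of the RNA-binding protein tristetraprolin (TTP). In ΔM mice Cre is expressed from the lysozyme M locus and deletes the TTP gene *Zfp36* in myeloid cells. Bone marrow came from mice aged 7 to 9 weeks, the WT animals being littermates, and both cultures were grown with CSF-1, labeled with 100 μM 4-thiouridine for 16 h and given LPS at 10 ng/ml. The time of 6 h is that of the treatment protocol, while both sample titles carry the tag LPS7, whose 7 is not explained. There was no unstimulated library, so levels before LPS are not part of these data. Because each genotype is a single library in this table, the differences below could not be checked in replicates and carry no p-values. The paper also measured expression and mRNA decay in WT and ΔM BMDMs with biological replicates in separate libraries, which were not used here.

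AP-1 is a dimer of proteins that share a basic region, which contacts DNA, and a leucine zipper, through which the partners pair. Fos proteins pair with Jun proteins, Jun proteins can also pair among themselves, and BATF pairs with Jun proteins while lacking a transactivation domain. Many genes of the family are immediate-early genes, whose mRNAs appear within minutes of stimulation and decay quickly, often through AU-rich elements in the 3′ untranslated region (UTR). TTP binds such elements and recruits deadenylases. In macrophages AP-1 cooperates with NF-κB at inflammatory genes, and ATF3 is induced by Toll-like receptors and restrains several of the same genes.

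Values are FPKM, fragments scaled to exon length and to the number of mapped fragments, so levels are per length and can be set side by side between genes. The number of fragments is not stored with the values. The steps between low FPKMs placed it at about 37100000 fragments in WT and 32800000 in ΔM. Intervals given below are 95% Poisson intervals on that depth, approximate and for counting error only, and they say nothing about variation between cultures. *Zfp36* was at 65.26 FPKM in WT and 16.71 in ΔM. All 8 macrophage markers averaged 1 FPKM or more. Their sum was 4001 FPKM in WT and 2864 in ΔM, and most of that gap lay in *Lyz2*, the gene that carries Cre, at 2480.86 and 1356.26 FPKM. The log2 ratios of the other 7 ran from -0.16 (*Itgam*, 223.19 FPKM in WT and 199.87 in ΔM) to 0.51 (*Mertk*, 2.15 and 3.48), with *Emr1* (-0.089) and *Cd14* (-0.090) below 0 and *Cd68* (0.0075), *Fcgr1* (0.10) and *Csf1r* (0.19) above it. The summed markers of neutrophils (0.0900 and 0.610 FPKM), dendritic cells (0.290 and 0.160), T cells (1.04 and 0.80), B cells (0.0300 and 0.0900), NK cells (0.0400 and 0.0100), mast cells or basophils (0.220 and 0.280) and fibroblasts (0.340 and 0.310) were near 0 in WT and ΔM, with *Ly6g*, *Elane*, *Cd3e*, *Cd3g* and *Ncr1* at 0. Of the megakaryocyte pair, *Pf4* was at 114.28 and 91.68 FPKM and *Itga2b* at 0.46 and 0.20.

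The family spanned the whole range of expression, with *Atf3* and *Junb* among the most abundant mRNAs and *Fosb* listed at 0. *Atf3*, a repressor of cytokine genes in macrophages, was the highest of the 10 at 101.65 FPKM in WT (99.2 to 104) and 109.36 in ΔM (107 to 112). It exceeded 98.3% of the protein-coding genes in WT and 98.4% in ΔM. *Junb*, a Jun protein that activates more weakly than c-Jun, followed at 53.57 FPKM in WT (51.7 to 55.5) and 52.34 in ΔM (50.4 to 54.3), above 96.7% of protein-coding genes in either library. Each of these genes thus stood at nearly the same level in WT and ΔM. Together they held 49.7% and 26.2% of the summed FPKM of the 10 genes in WT, and 52.3% and 25.0% in ΔM.

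A middle group held the mRNAs of BATF, JunD and c-Fos. *Batf*, which pairs with Jun and with IRF4 or IRF8 in lymphocytes and dendritic cells, was at 21.73 FPKM in WT (20 to 23.5) and 14.12 in ΔM (12.7 to 15.7). *Jund*, the Jun gene that is usually expressed constitutively, was at 11.56 FPKM in WT (10.9 to 12.2) and 12.04 in ΔM (11.3 to 12.8). *Fos*, the classical immediate-early gene, was at 8.62 FPKM in WT (7.95 to 9.33) and 12 in ΔM (11.2 to 12.9). In WT the 3 levels lay in the order *Batf*, *Jund*, *Fos* with intervals that did not touch, whereas in ΔM the intervals of *Batf* and *Jund* overlapped, as did those of *Jund* and *Fos*.

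The remaining genes were low. *Fosl2*, which encodes the Fos-related antigen Fra-2, was at 4.02 FPKM in WT (3.75 to 4.30) and 4.00 in ΔM (3.72 to 4.30). *Jun*, which encodes c-Jun, the strongest activator of its family, was at 2.32 FPKM in WT (2.05 to 2.62) and 3.58 in ΔM (3.22 to 3.97). *Maff*, a small Maf protein without a transactivation domain of its own, was at 0.79 FPKM in WT (0.588 to 1.04) and 1.66 in ΔM (1.34 to 2.03), about 50.8 and 94.3 fragments. In ΔM the intervals of *Fosl2* and *Jun* overlapped, and in WT they did not.

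The last pair fell under the minimum mean of 1 FPKM that was set for ratios, so 8 of the 10 genes were compared. *Fosl1*, which encodes Fra-1, was at 0.08 FPKM in WT and 0.02 in ΔM, about 4.47 and 0.988 fragments, and the intervals (0.0239 to 0.195 and 0.000487 to 0.112) overlapped. *Fosb* was listed at 0 in WT and ΔM, which allows up to 0.0228 FPKM in WT and 0.0258 in ΔM (3 fragments per library). No ratio is given for it.

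**Figure D1:**
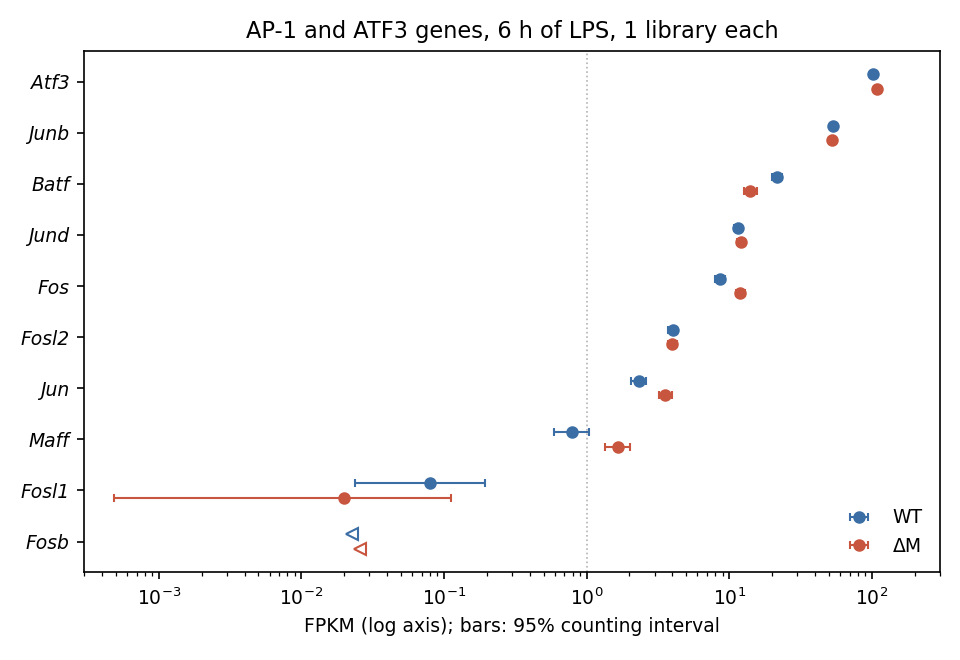
FPKM of the 10 genes on a log axis in the WT library (blue) and the ΔM library (red), with 95% counting intervals as bars and open triangles at the upper limit that a count of 0 allows for *Fosb*. *Atf3* and *Junb* lie above 50 FPKM in WT and ΔM, while *Fos*, *Jun* and *Maff* sit to the right and *Batf* to the left in ΔM.

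The question for ΔM cells is which of these mRNAs differ when TTP is missing. Of the 8 genes compared, *Maff*, *Jun* and *Fos* were higher in ΔM, *Batf* was lower, and *Atf3*, *Jund*, *Fosl2* and *Junb* lay within 1.08-fold. *Maff* was at 2.10 times the WT value (counting interval 1.48 to 3.02), but it lay below 1 FPKM in WT and reached the minimum mean only through its level in ΔM, so its place among the genes compared is not independent of that ratio. *Jun* was at 1.54 times (1.31 to 1.82) and *Fos* at 1.39 times (1.25 to 1.55) the WT value. *Batf* was at 0.650 times the WT value (0.568 to 0.742), and its interval in ΔM did not reach that in WT. Among the genes that hardly differed, *Atf3* was at 1.08 times (1.04 to 1.11), *Jund* at 1.04 times (0.957 to 1.13), *Fosl2* at 0.995 times (0.90 to 1.10) and *Junb* at 0.977 times (0.928 to 1.03). Fewer transcripts per cell and fewer cells that express a gene cannot be told apart in these bulk libraries.

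Ratios of ΔM over WT were put on the log2 scale after adding 1 FPKM to each value, which damps low genes. On this scale they were 0.57 for *Maff* (0.30 to 0.85), 0.46 for *Jun* (0.29 to 0.64), 0.43 for *Fos* (0.29 to 0.58), 0.10 for *Atf3*, 0.054 for *Jund*, -0.0058 for *Fosl2*, -0.033 for *Junb* and -0.59 for *Batf* (-0.77 to -0.41). The median of the 8 was 0.079, against 0.028 over the 10765 genes that averaged 1 FPKM or more and -0.0015 over the 8078 protein-coding genes among them. At least 1.5-fold higher in ΔM were 0 of the 8 genes, beside 11.2% of all genes and 4.82% of the protein-coding genes. At least 1.5-fold lower was 1 of the 8, *Batf*, beside 7.51% and 5.36%. *Batf* lay just inside this limit and *Maff* just outside it. With plain ratios of FPKM, *Jun* passed it as well, and so did *Maff*, which entered the comparison only through ΔM. The count was then 2 of 8 higher, beside 8.48% of protein-coding genes, and 1 of 8 lower, beside 8.63%. These shares of 8 genes are too coarse to set the family apart from the background.

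Placed among the log2 ratios of the 8078 protein-coding genes, *Maff* stood at percentile 94.9, *Jun* at 92.0 and *Fos* at 91.2. *Atf3* stood at 66.0, *Jund* at 58.6, *Fosl2* at 49.6 and *Junb* at 45.1. *Batf*, at percentile 5.27, was the only one of the 8 below percentile 45. Of the protein-coding genes, 89.8% differed by less than 1.5-fold on this scale.

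**Figure D2:**
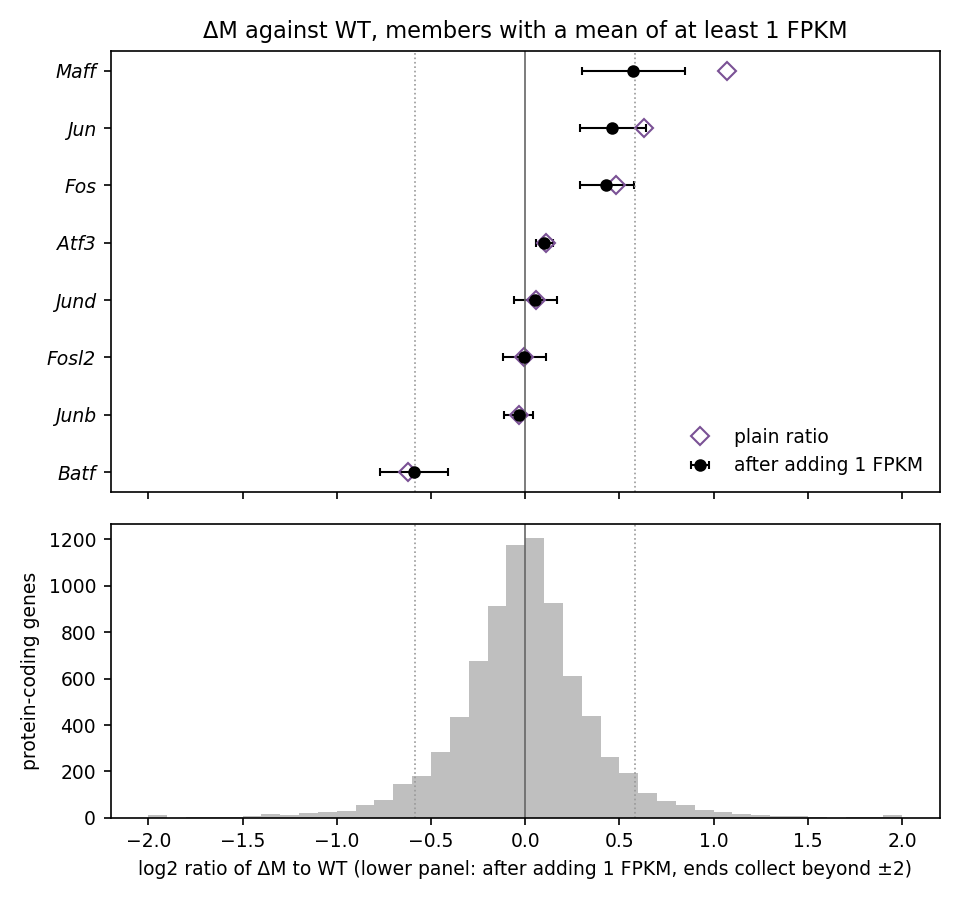
Upper panel, log2 ratio of ΔM to WT for the 8 genes compared, on FPKM plus 1 (filled points, bars are 95% counting intervals) and as plain ratios (open diamonds). Lower panel, the same ratio for 8078 protein-coding genes. Dotted lines mark 1.5-fold, which *Batf* reaches at -0.59 and *Maff* nearly reaches at 0.57.

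Because the partners of a dimer come from separate families, the make-up of each family was calculated. The Jun family summed to 67.5 FPKM in WT and 68.0 in ΔM. *Junb* made up most of it, 79.4% ± 1.03 in WT and 77.0% ± 1.14 in ΔM (half-widths of 95% counting intervals). The part of *Jund* was 17.1% ± 0.950 and 17.7% ± 1.02, and that of *Jun* was 3.44% ± 0.418 in WT and 5.27% ± 0.547 in ΔM. The Fos family was smaller, with 12.7 FPKM in WT and 16.0 in ΔM. *Fos* made up 67.8% ± 2.29 of it in WT and 74.9% ± 1.91 in ΔM, and *Fosl2* 31.6% ± 2.25 and 25.0% ± 1.90. The Jun family thus held 5.30 times the FPKM of the Fos family in WT and 4.24 times in ΔM. These are mRNA levels, and the amounts of the proteins or of their dimers were not measured.

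**Figure D3:**
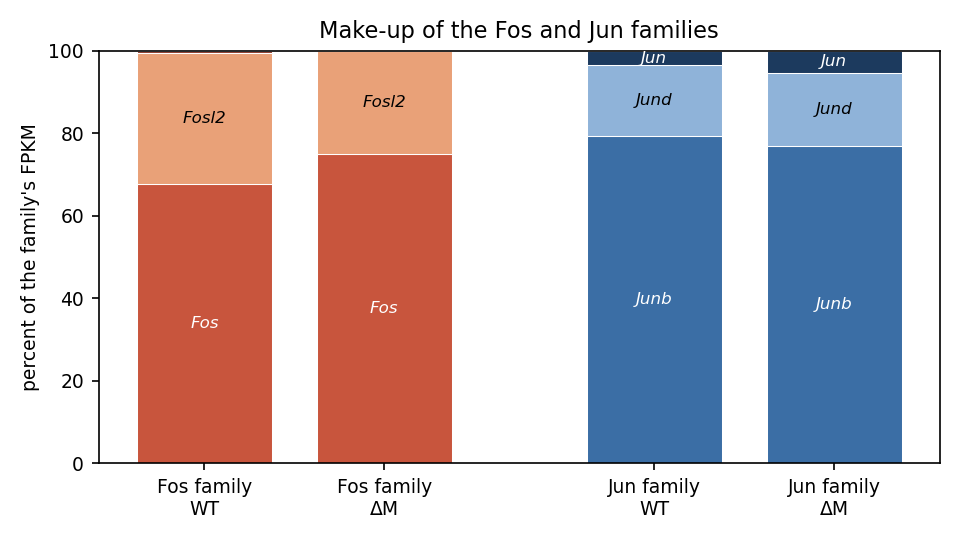
Percent of the summed FPKM of the Fos family (*Fos*, *Fosb*, *Fosl1*, *Fosl2*) and of the Jun family (*Jun*, *Junb*, *Jund*) held by each gene in the WT and ΔM libraries. *Junb* holds 79.4% and 77.0% of the Jun family, and *Fos* 67.8% and 74.9% of the Fos family.

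AU-rich elements were counted in the longest annotated 3′ UTR of each gene, as the pentamer ATTTA and as the heptamer TATTTAT on the sense strand, where each heptamer contains a pentamer. Of 7938 genes with a 3′ UTR that averaged 1 FPKM or more, 66.6% held an ATTTA and 27.0% a TATTTAT, and the median was 1.16 ATTTA per kb. *Fos* held 4 pentamers and 2 heptamers in 815 nt, or 4.91 pentamers per kb (percentile 94.0 of these genes). *Junb* held 2 pentamers and 0 heptamers in 483 nt, or 4.14 per kb. *Maff* and *Jun* held 4 pentamers each, in 1217 and 1233 nt, or 3.29 and 3.24 per kb, with 2 heptamers in *Maff* and 1 in *Jun*. The density was 2.53 per kb in *Atf3*, 1.88 in *Jund*, 1.72 in *Fosl2*, 1.57 in *Fosl1* and 0.472 in *Fosb*. *Batf* was the only one of the 10 genes without an ATTTA, in a 3′ UTR of 335 nt. Of the 8 genes compared, *Batf* had the lowest ratio of ΔM to WT. The 4 densest, *Fos*, *Junb*, *Maff* and *Jun*, were at 1.39, 0.977, 2.10 and 1.54 times their WT levels. *Maff* reached the minimum mean only through its level in ΔM. Whether the density is related to the ratio was not tested.

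The study's list of TTP sites at 6 h of LPS, from which only positions and sequences were taken, held 5 sites in the 3′ UTRs of *Fos*, *Junb* and *Atf3*. The other 7 genes had no site in the 496 genes read from it. As background, these 496 genes had sites in introns, 3′ UTRs or other regions. They stand beside 22259 protein-coding genes in all, of which 8078 averaged 1 FPKM or more. By the paper's account, more of the bound genes had sites in introns alone than in the 3′ UTR. The 496 genes are therefore not the background that matches sites in the 3′ UTR. The share of genes with a site in the 3′ UTR was not calculated. Whether 3 of 10 genes is more than that share was not tested. All 5 sequences matched NCBIM37 (mm9) at their stated positions. They are shown because they are the bases through which TTP was mapped to this family, written 5′ to 3′ on the sense strand, with the listed site in capitals and the flanking bases of the genome in lower case. Coordinates are those of the whole stretch printed.

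The sites in *Fos* (ENSMUSG00000021250, chromosome 12, 86814840 to 86818223, plus strand) cover bases 695 to 705 and 662 to 664 of its 3′ UTR, and a TATTTAT ends on the first base of the shorter one:
Fos, chr12:86818094-86818122: tatttttatTTTATTTTTTTctaccctga
Fos, chr12:86818057-86818085: ttcaatttatttaTTAagatggattctca
The sites in *Junb* (ENSMUSG00000052837, chromosome 8, 87500811 to 87502617, minus strand) cover bases 440 to 458 and 235 to 255 of a 3′ UTR of 483 nt, each with an ATTTA across its 3′ end:
Junb, chr8:87500831-87500859: tttgaCTTTTTATTGAATCTATTTaagta
Junb, chr8:87501035-87501063: ttgaATATAATATATTTGTGTATTTaaca
The site in *Atf3* (ENSMUSG00000026628, chromosome 1, 192994175 to 193007219, minus strand) covers bases 1117 to 1123 of a 3′ UTR of 1186 nt, with a TATTTAT shortly 3′ of it:
Atf3, chr1:192994227-192994255: tctgtaagagaAAATATTacttatttatc

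Of the 3 genes with a listed site, *Fos* was at 1.39 times, *Atf3* at 1.08 times and *Junb* at 0.977 times the WT level in ΔM, and the counting interval of *Junb* included 1. *Maff* and *Jun*, at 2.10 and 1.54 times, were not among the genes with a listed site. The study listed only sites above a minimum number of crosslinks in every replicate. By its account, the method does not separate weak sites in abundant mRNAs from strong sites in scarce ones. *Maff* and *Jun* were at 0.79 and 2.32 FPKM in WT, so their absence from the list does not show that TTP did not bind them.

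**Figure D4:**
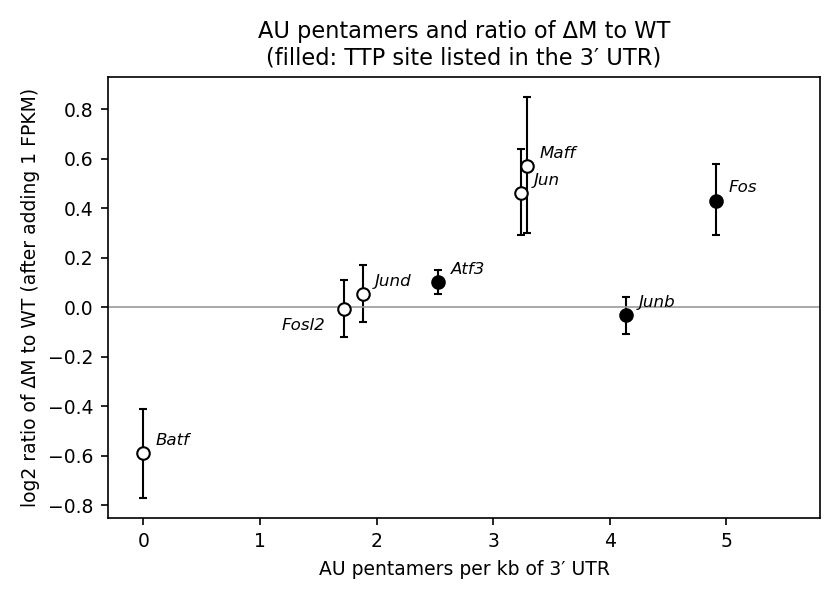
Density of ATTTA pentamers in the 3′ UTR (x axis, per kb) against the log2 ratio of ΔM to WT after adding 1 FPKM (y axis, bars are 95% counting intervals) for the 8 genes compared, filled where a TTP site is listed. *Batf* lies at 0 per kb and -0.59, *Fos* at 4.91 per kb and 0.43, and *Junb* at 4.14 per kb and -0.033.

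AP-1 and ATF factors bind the palindromes TGANTCA and TGACGTCA, and genes of the family carry such elements themselves. Promoters of 9 of the 10 genes were matched by symbol in RefSeq (GRCm38.p6, 250 bases before to 50 after the start, 11 promoters, of which 3 belong to *Maff*), all but *Fosl1*. On either strand TGACGTCA occurred in 1.79% of 32851 promoters and TGANTCA in 7.81%. Among the 9 genes TGACGTCA was found in *Maff*, and TGANTCA in 0 of them. The wider TGACNTCA, which includes TGACGTCA and was added after the sequences had been seen, occurred in 8.83% of promoters and in 2 of the 9 genes, *Jun* and *Maff*. These background shares are per promoter, whereas the 9 genes are counted per gene, and *Maff* with its 3 promoters had more chances of a match. The CArG box, bound by serum response factor, was found in 1.63% of promoters and an NF-κB motif (GGG, any 2 bases, TTTCC) in 1.63%, and each in 0 of the 9 genes. Bases farther than 250 before the start were not searched, so a gene without a match here may still carry the element upstream. The matches are shown, in capitals, because they are all that were found. The first base of each lies 45, 29 and 45 bases before the annotated start. *Jun* matched only the wider TGACNTCA, and *Fos*, which like *Jun* and *Maff* was higher in ΔM, had no match. Whether a match is related to the ratio was not tested.
Jun, chr4:95052248-95052279, minus strand: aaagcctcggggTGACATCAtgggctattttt
Maff, chr15:79347479-79347510, plus strand: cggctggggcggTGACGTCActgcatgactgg
Maff, chr15:79348345-79348376, plus strand: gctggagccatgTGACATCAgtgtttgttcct
These are matches of letters only, and binding was not measured.

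*Fos* and *Batf* lie on the plus strand of chromosome 12 with 209395 nt between them in mm9, and *Jdp2*, which encodes a further AP-1 repressor that pairs with Jun, lies between them. *Jdp2* was at 3.44 FPKM in WT and 1.58 in ΔM, 0.459 times (0.346 to 0.604), a log2 ratio of -0.78. The 2 neighbours *Jdp2* and *Batf* were thus lower in ΔM and *Fos* was higher. Within 100 kb of *Fos* or *Batf*, *Tmed10* was at 2.0 and 2.03 FPKM, *Mfsd7c* at 0.24 and 0.12, and the short rRNA gene *n-R5s64* at 10.29 and 0.00.

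Other genes overlap 3 of the 10 on the opposite strand, and whether the authors counted by strand is not given in the sources used here. They were *Gm11175* within *Jund* (1.95 FPKM in WT, 2.28 in ΔM), *BC042782* at *Jun* (1.04 and 0.72) and *Ccdc85b* at *Fosl1* (0.02 and 0.03). Without strand, reads of such pairs cannot be told apart, so *Jun*, *Jund* and *Fosl1* are less certain than the other members. The authors kept uniquely mapped reads, so near-identical copies would remove reads. Of windows of 100 nt from the transcripts, 5 of 139 in *Jund* (3.6%) and 0 in the other 9 genes had a further match in mm9, against 86.6% in *Gapdh*.

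Genes of the same pathway were described from lists. Their counts stand beside 4.82% of the protein-coding genes at least 1.5-fold higher in ΔM and 5.36% lower. Of 23 other bZIP genes that averaged 1 FPKM or more, 1 was at least 1.5-fold higher and 2 lower in ΔM, with a median log2 ratio of -0.13. The lower genes were *Creb1*, a cAMP-responsive activator, at 9.06 FPKM in WT and 4.59 in ΔM (log2 ratio -0.85), and *Jdp2*. *Mafk*, a small Maf like *Maff*, was at 9.28 and 14.05 FPKM (0.55), and *Mafg*, the other small Maf, at 5.63 and 5.01 (-0.14). *Mafk* and *Mafg* were chosen after their values were seen. *Maff* was thus the least abundant of the small Maf genes in WT and in ΔM.

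Of 14 other immediate-early genes, 1 was at least 1.5-fold higher and 2 were lower, with a median of -0.25. The lower genes were *Nr4a2*, an orphan nuclear receptor, at 3.69 FPKM in WT and 0.11 in ΔM (log2 ratio -2.08), and the deleted *Zfp36*. The higher one was *Ier3*, an early gene that limits apoptosis, at 27.54 and 53.29 FPKM (0.93). In this list 11 of 14 genes were below 0 on the log2 scale, the deleted *Zfp36* among them. Of the 8 AP-1 genes, 5 were above 0, including *Maff*, which reached the minimum mean only through its level in ΔM. Above 0 were also 5795 of 10765 genes in all and 4000 of the 8078 protein-coding genes, with 4052 of the latter below 0. Most of these immediate-early genes thus lay on the other side of 0 from *Fos* and *Jun*. Whether this differs from the share of all protein-coding genes was not tested.

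Upstream of AP-1, 20 kinases and factors had a median log2 ratio of 0.045, with 1 gene at least 1.5-fold higher and 1 lower. *Elk3*, a ternary complex factor, was at 1.39 FPKM in WT and 3.16 in ΔM (0.80), *Map3k5*, a kinase upstream of JNK and p38, at 5.64 and 2.99 (-0.73), and *Map3k1*, another such kinase, at 8.04 and 11.03 (0.41). Of 12 genes for turnover and partners of Jun and Fos proteins, 0 passed 1.5-fold in either direction and the median was 0.093. The furthest from 0 were the corepressor *Ncor1* at 17.63 and 25.62 FPKM (0.51), the acetyltransferase *Ep300* at 7.09 and 9.03 (0.31) and the ubiquitin ligase scaffold *Cul4a* at 12.59 and 10.53 (-0.24).

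Among 15 genes known as targets of AP-1 or ATF3, 1 was at least 1.5-fold higher and 0 were lower, with a median of 0.084. *Ptgs2*, which encodes cyclooxygenase-2, was at 112.35 FPKM in WT and 207.84 in ΔM (0.88), *Mmp9*, a gelatinase, at 1.01 and 1.84 (0.50), and *Il6* at 34.86 and 49.28 (0.49). The paper also lists a TTP site in the 3′ UTR of *Ptgs2* and shows *Il6* as an mRNA that TTP destabilizes. The activity of AP-1 at these genes was not measured, and what underlies their ratios was not tested. The medians of the 5 lists lay between -0.25 and 0.093, and that of the AP-1 and ATF3 genes within this range.

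**Figure D5:**
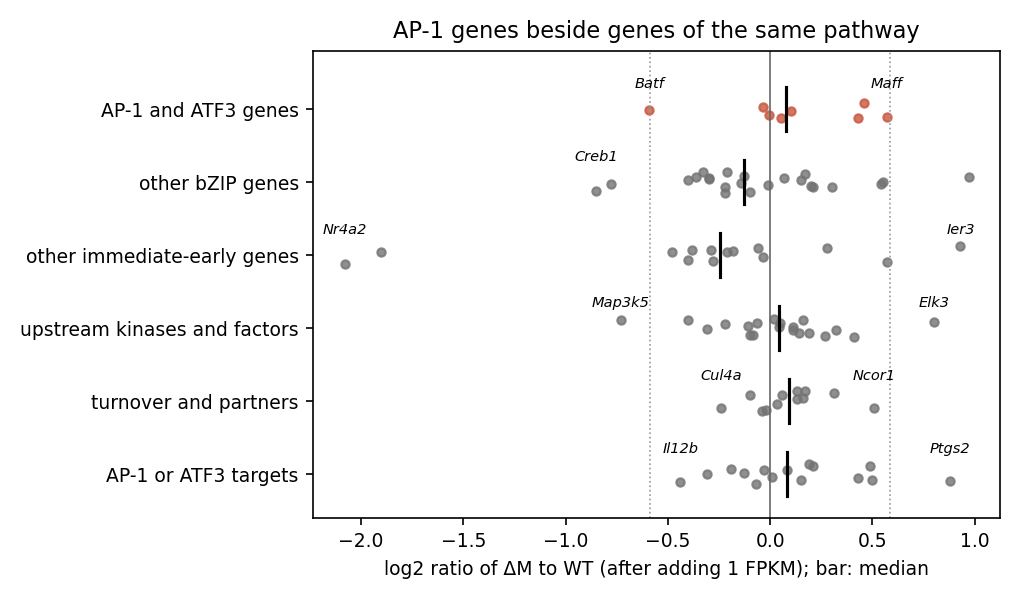
Log2 ratio of ΔM to WT after adding 1 FPKM for the AP-1 and ATF3 genes (red) and for 5 lists of related genes (grey), for genes that averaged 1 FPKM or more. Each point is a gene, vertical bars are medians, dotted lines mark 1.5-fold and the lowest and highest genes are named, for the other bZIP genes the lowest alone. The list medians lie between -0.25 and 0.093 and the AP-1 and ATF3 genes run from -0.59 to 0.57.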

How the data were processed

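RNA-Seq was performed on 1 WT and 1 ΔM library. According to the study's methods, the authors removed rRNA, fragmented the RNA and ligated a 3′ adaptor. Reads were trimmed with Cutadapt and aligned by Segemehl to mm9. Those with a unique position entered Cufflinks, with exons from Ensembl. The deposited FPKM values have 2 decimals and 1 value per gene, with 1 cell without a number in ΔM. The header of the second column reads ?M, which was taken as ΔM because the sample titles name WT and dM. Count models were not applied, since these are normalized values.

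Here, ratios of ΔM over WT were put on the log2 scale, on FPKM plus 1, where the mean of WT and ΔM reached 1 FPKM, and 1.5-fold was the limit for counts of genes. No p-values were calculated. Depth was estimated from low FPKMs of single-transcript genes of 350 to 700 nt, searching for the fragment number and mean fragment length (202 nt in WT and ΔM) at which they are whole multiples of 1 fragment (tolerance 0.15). This held for 93.4% of the values in WT and 93.8% in ΔM, against 32.2% and 31.9% at other depths. On 3 simulated libraries of 1524 genes the estimate was off by at most 1.11%. Counting intervals (95%, Poisson, and exact binomial for ratios) used the longest annotated protein-coding transcript.

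GENCODE M1 (NCBIM37) held 37039 of the 37451 identifiers. Promoters are from RefSeq (GRCm38.p6). Protein sequences were not analysed here. The members and gene lists were chosen with earlier results of these data known. Named from each list are the 3 genes farthest from 0 among those reaching this mean, and neighbours within 100 kb of *Fos* and *Batf*. Values of 1 gene under this rule and of 1 marker are not reported here. No likeness of pattern was calculated, since 2 libraries give 1 ratio per gene. Alternatives covered the pseudocount, the minimum FPKM, centring and the fold. Windows of 100 nt were aligned with minimap2 2.31, counting a place with at least 95 matching bases. Python 3.11.15, numpy 2.4.6, pandas 2.3.3, scipy 1.17.1 and matplotlib 3.10.9 were used.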

Additional observations from a re-analysis of the deposited data

How the results depend on the processing

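No paired analysis was possible because WT and ΔM are single libraries, and leaving either out would leave no ratio. Of 52 comparisons with an alternative, 47 stayed within the counting interval of a gene (for the median, within 0.13 on the log2 scale) or kept the count, and 5 moved. A change of sign was looked for only in *Batf*, the 1 gene past 1.5-fold, and was not found. A change of pseudocount cannot produce one. The number of AP-1 and ATF3 genes at least 1.5-fold higher in ΔM went from 0 to 2 (*Jun* and *Maff*) with a pseudocount of 0.1 FPKM and also to 2 without one. Both settings move the ratios of low genes away from 0 by construction, and the log2 ratio of *Maff* became 0.98 and 1.07. The number at least 1.5-fold lower stayed at 1 (*Batf*) except at 2-fold, where it was 0, as a stricter limit must give. The median log2 ratio lay between 0.027 (no minimum FPKM) and 0.082. Centring on genes that averaged 10 FPKM or more took 0.038 from every ratio. Depth limits *Fosl1*, with about 4.47 and 0.988 fragments, and *Fosb*, listed at 0.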
